A study of Homo sapiens with 9 samples.

Results

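The mitogen-activated protein (MAP) kinases and the kinases above them were described in the RNA of pseudopodia, the processes that a cell pushes out towards an attractant. Members were the genes whose symbol in the deposited data is exactly MAPK, MAP2K, MAP3K or MAP4K followed by a number. The rule gave 43 genes of the 37196 with a count in any library: 5 MAP4K, 18 MAP3K, 7 MAP2K and 13 MAPK genes. All 9 libraries came from hTERT-MSC, an established line of human adipose mesenchymal stem cells immortalised with telomerase. Cells starved of serum overnight were placed on inserts with 3 µm pores and no matrix coating, left for 2 h, and then exposed for 1 h from the well below to PDGF-BB (50 ng/mL), which is a growth factor and attractant of mesenchymal cells. Pseudopodia (3 libraries) were scraped from the lower side of the membrane and cell bodies (3 libraries) from the upper side afterwards. The whole-cell group (3 libraries) carries the same treatment label, and its collection is not separately described. All 3 groups thus received PDGF-BB, no untreated group was analysed, and the line is a single immortalised one. Whether libraries of a group were grown as separate cultures is not in the labels, so the p-values reflect variation between libraries that could be purely technical.

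MAP kinase cascades are relays in which each kinase phosphorylates and switches on the next. A MAP4K, or a small GTPase such as RAS or RAC, activates a MAP3K, the MAP3K activates a MAP2K, and the MAP2K activates a MAPK, which phosphorylates transcription factors, other kinases and cytoskeletal proteins. In mesenchymal cells the ERK branch responds to growth factors such as PDGF, while the JNK and p38 branches respond to stress and cytokines, and all of them are known to act in cell migration.

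Total counts ran from 55469030 to 83894938 per library. Fitted within each group, the biological coefficient of variation over genes reached 33% in pseudopodia against 17.6% in cell bodies and 5.08% in whole cells. Pseudopodia replicates 2 and 3 differed from each other in a way that followed GC content (given for the members further on). The 8 mesenchymal markers summed to 8610 to 10100 TPM (the length-corrected share of transcripts as deposited) in pseudopodia, 15900 to 18200 in cell bodies and 17400 to 17800 in whole cells. The 5 RNAs known to localise to protrusions (RAB13, NET1, KIF1C, TRAK2, DDR2) summed to 4060 to 4490 TPM in pseudopodia, 237 to 284 in cell bodies and 360 to 395 in whole cells. The 4 nuclear RNAs (NEAT1, TUG1, MEG3, KCNQ1OT1) summed to 39.7 to 45.3, 80.7 to 110 and 202 to 218 TPM in the same order. Markers of other cell types summed to less. The 5 endothelial markers lay between 38.8 and 84.9 TPM over all libraries, most of it TEK, with KDR at 0 in cell bodies and whole cells. The other 3 were detected. CDH5 averaged 1.57, 8.33 and 11.3 TPM in pseudopodia, cell bodies and whole cells. In the same order PECAM1 averaged 4.39, 4.42 and 2.09, and VWF 4.75, 2.20 and 0.593. The 5 haematopoietic markers lay between 29.9 and 60.4, nearly all of it CD34 and CD14, with PTPRC at no more than 0.122. CD34 averaged 25.6, 29.7 and 33.0 TPM in pseudopodia, cell bodies and whole cells, and CD14 averaged 7.23, 28.8 and 6.73. The 3 adipocyte markers found lay between 0.354 and 1.37. The 5 epithelial markers summed to 211 to 279 in pseudopodia, 249 to 293 in cell bodies and 147 to 157 in whole cells, nearly all of it KRT8 and KRT18, with EPCAM at no more than 0.123.

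The members together made up a larger share of RNA in pseudopodia, and most of that difference was 1 gene, MAP4K4. Summed over all 43 members, the level was 3310 ± 191 TPM (SD, n = 3) in pseudopodia, 1666 ± 63.8 in cell bodies and 1348 ± 24.3 in whole cells. MAP4K4 alone held 66.0% to 67.5% of the members' counts in the pseudopodia libraries, 15.3% to 19.4% in cell bodies and 22.7% to 23.3% in whole cells. Without MAP4K4 the sums were 1675 ± 97.4, 1507 ± 37.6 and 1159 ± 20.6 TPM. A level here is a share of the RNA of a fraction, so fewer molecules of other genes and more molecules of these per cell cannot be told apart.

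**Figure D1:**
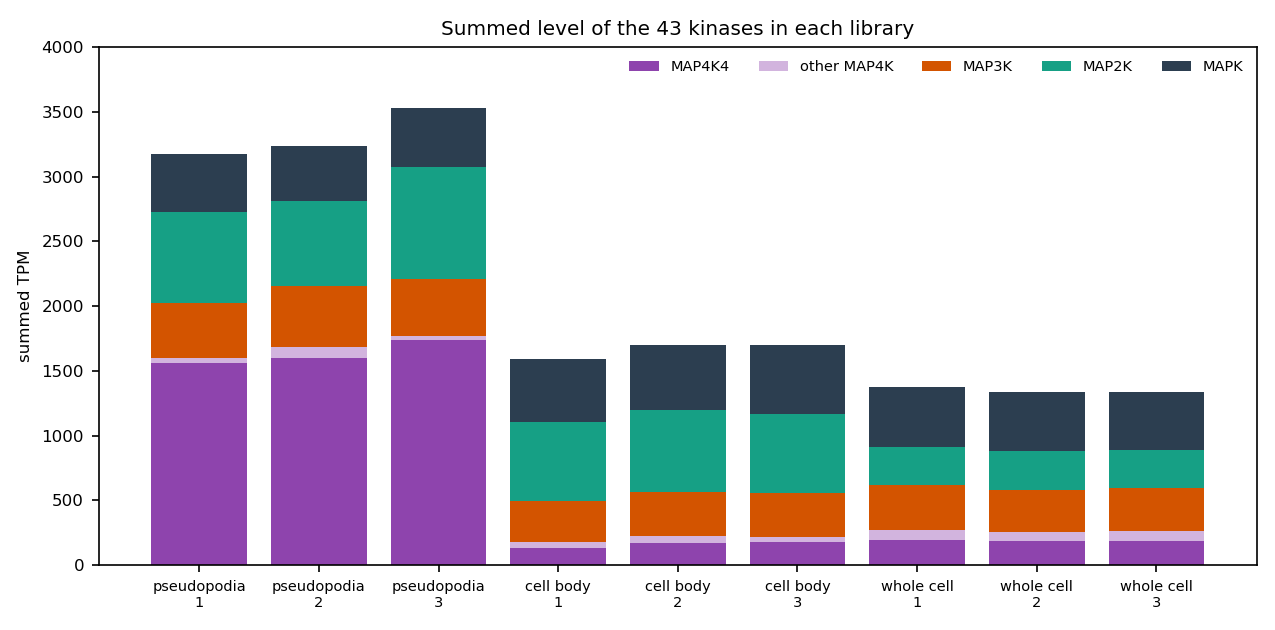
Summed level of the 43 members (TPM, vertical axis) in each of the 9 libraries, stacked by tier with MAP4K4 apart. MAP4K4 is the largest block in all 3 pseudopodia libraries, whereas the blocks of the other tiers differ much less between groups.

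By length-corrected level (TPM) the order of the members also differed between groups. In pseudopodia MAP4K4 (1635 ± 93.8 TPM) came first, ahead of MAP2K3 (422.7 ± 78.3), MAPK3 (193.1 ± 29.2), MAP2K2 (147.9 ± 24.8) and MAP3K4 (98.3 ± 18.4). MAPK3 and MAP2K2 overlapped over their libraries there, while MAP4K4 and MAP2K3 did not overlap with their neighbours. In cell bodies MAP2K3 (368.7 ± 12.4 TPM) came first, and MAPK3 (184.6 ± 8.13), MAP4K4 (158.3 ± 27.0) and MAP2K2 (109.5 ± 6.95) were among those that followed, with an overlap between MAPK3 and MAP4K4. In whole cells the order of these genes was MAP4K4 (188.3 ± 5.19 TPM), MAPK3 (171.0 ± 2.36), MAP2K2 (100.1 ± 3.41) and MAP2K3 (70.8 ± 2.92), and none of these 4 overlapped with the next. By mean TPM, MAP4K4 ranked 72nd of 37196 genes in pseudopodia, 928th in cell bodies and 651st in whole cells.

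Between pseudopodia and cell bodies, which asks what RNA the processes hold relative to the cell they left, 16 of these kinases stood higher in pseudopodia and 1 stood lower. The 6 at least 2-fold higher were MAP4K4, MAP3K1, MAP3K4, MAP3K5, MAP3K10 and MAP2K7. Of 38 members tested, 21 were not called (edgeR's quasi-likelihood test, Benjamini-Hochberg adjusted p under 0.05 over 19426 genes, the meaning of a call throughout). Over all genes tested 38.5% were called, 18.6% higher and 19.9% lower, against 42.1% and 2.63% of the members. By tier, 2 of 5 MAP4K genes rose and none fell, 9 of 15 MAP3K genes rose and none fell, 3 of 7 MAP2K genes rose and none fell, and 2 of 11 MAPK genes rose while 1 fell. The median log2 fold change was 0.63 for the MAP3K tier, 0.28 for MAP4K, 0.27 for MAP2K and -0.07 for MAPK, beside -0.05 for all genes. A difference of at least 2-fold was called higher for 6 members (8.7% of all genes) and lower for none (12.3% of all genes). On deposited TPM (limma on log2(TPM + 1)), where the median of all genes lay at -0.17, the members split into 11 higher and 6 lower. All 19426 genes split there into 2310 higher and 5907 lower. The calls of MAP4K2, MAP3K3, MAP3K6, MAP3K12 and MAP2K3 were not made there, and those of MAP3K12 and MAPK12 were not made with the GC and length correction. Without pseudopodia replicate 3 the members split into 19 and 3 (all genes 3791 and 4506). Without cell-body replicate 2 or 3 they split into 13 and 0 (all genes 3007 and 3170, then 2892 and 3142). Of the markers given above, 7 of the 8 mesenchymal genes and 3 of the 4 nuclear RNAs were called lower in pseudopodia than in cell bodies. NEAT1 overlapped between these groups, at 18.6 to 19.8 TPM in pseudopodia and 19.3 to 25.6 in cell bodies. The part of these markers in the counts of members was not tested.

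**Figure D2:**
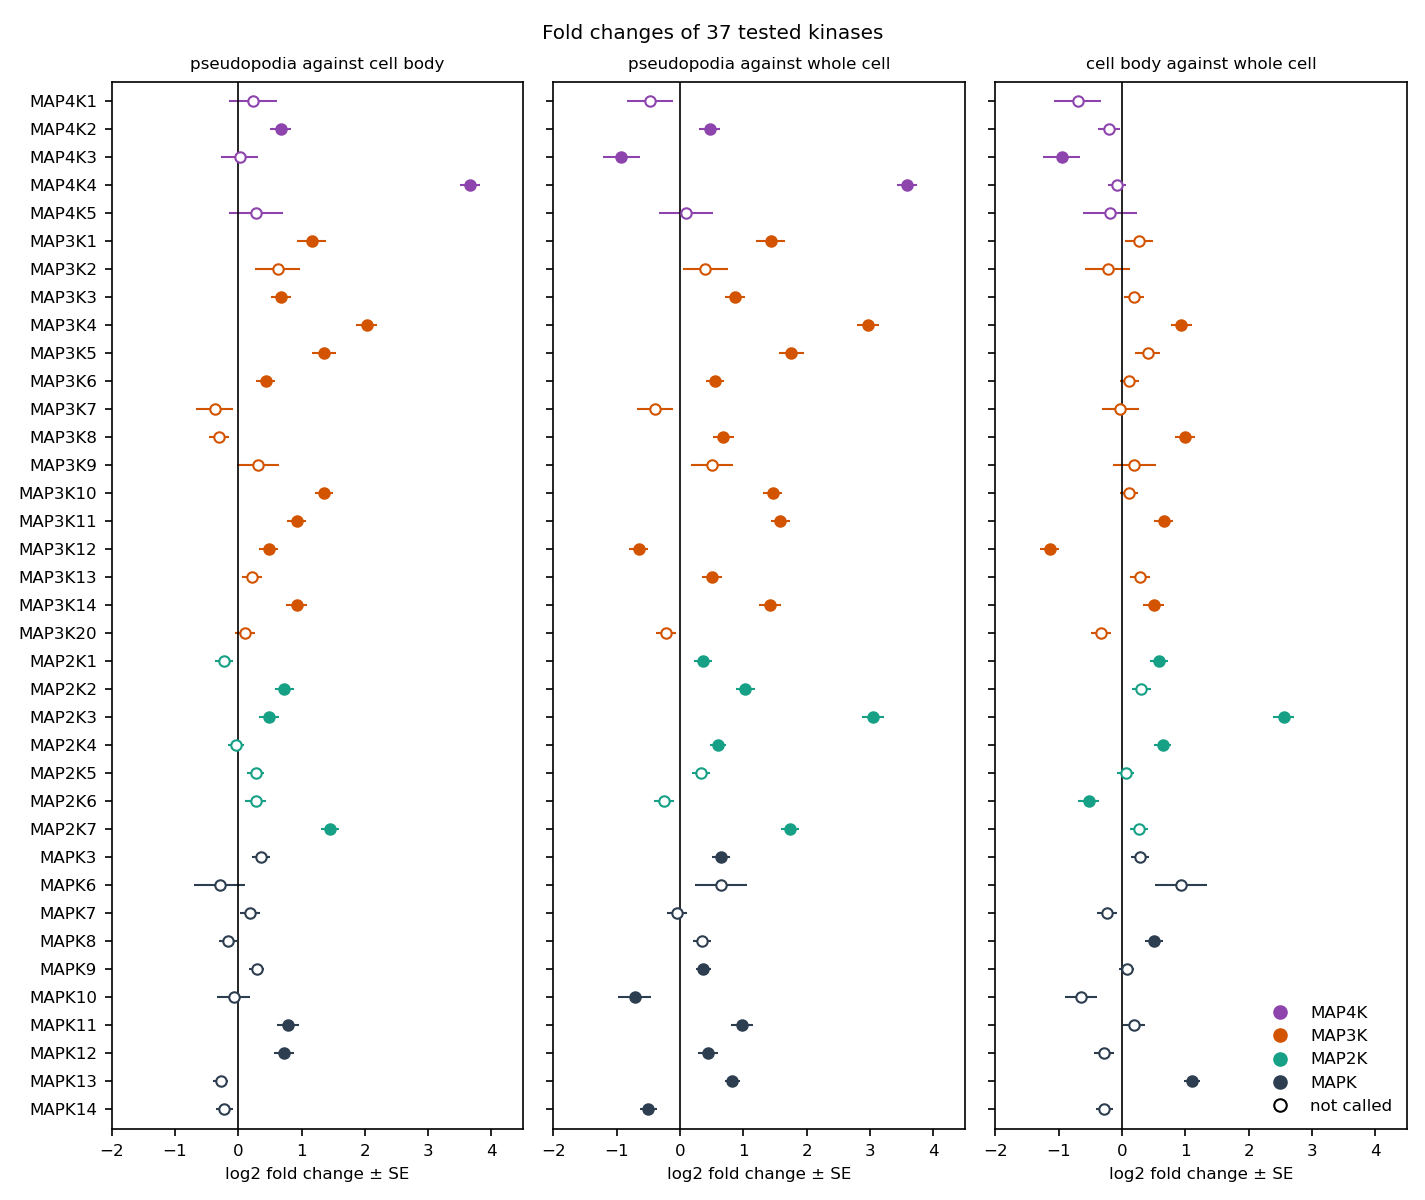
Log2 fold change (horizontal axis, ± SE) of 37 tested members, grouped by tier from MAP4K at the top to MAPK at the bottom, in the 3 comparisons; filled points are called. In pseudopodia against cell body 16 members are called higher (11 on the TPM scale), and MAP4K4 lies apart from the rest at 3.66.

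At the top of the cascade, MAP4K4 set the pseudopodia apart more than any other member. MAP4K4 (ENSG00000071054, GRCh38 chromosome 2, 101696850 to 101894689, plus strand) encodes a kinase of the STE20 family that acts above JNK and is known for its part in focal adhesion turnover during migration. Its normalised read counts (CPM, scaled to library size) were 5479, 5426 and 6412 in the pseudopodia libraries. They were 370.0, 494.5 and 508.1 in cell bodies and 481.0, 475.1 and 489.6 in whole cells. The lowest pseudopodia library was thus far above the highest library of either other group, and cell bodies and whole cells overlapped. The log2 fold change was 3.66 ± 0.16 (SE) against cell bodies, 12.6-fold (edgeR adjusted p = 5.88e-08), and 3.58 ± 0.16 against whole cells, 12.0-fold (edgeR adjusted p = 4.39e-08). Cell bodies and whole cells differed by -0.07 ± 0.14 (edgeR adjusted p = 0.702). Ranked by fold change, it stood 94th of the 19426 genes tested against cell bodies and 149th against whole cells.

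The other MAP4K genes did not share this size of difference. MAP4K2, a germinal centre kinase that also acts above JNK, rose by 0.67 ± 0.17 on the log2 scale in pseudopodia over cell bodies (edgeR adjusted p = 0.00846). Against whole cells MAP4K2 was called higher too, by 0.46 (edgeR adjusted p = 0.031), but its value was -0.013 on the TPM scale and 5 of the 9 libraries, when left out, ended that call (pseudopodia replicates 1 and 3 and each whole-cell library, edgeR adjusted p up to 0.0963). MAP4K3, a kinase linked to amino acid sensing, was at 19.3, 28.3 and 11.0 CPM in pseudopodia, 20.8, 22.1 and 14.9 in cell bodies and 37.9, 34.9 and 38.8 in whole cells. Both fractions lay below all whole-cell libraries, by -0.93 ± 0.29 for pseudopodia (edgeR adjusted p = 0.0197) and -0.95 ± 0.29 for cell bodies (edgeR adjusted p = 0.0283), and overlapped with each other. With a correction for GC content and length the first of these values was 0.18 and neither was called. The pseudopodia call was lost without pseudopodia replicate 1 or whole-cell replicate 1 or 3 (edgeR adjusted p up to 0.0563), and the cell-body call without cell-body replicate 1 or 3 or any whole-cell library (up to 0.0986). MAP4K5 was at 51.0, 126 and 33.8 CPM in pseudopodia, so its replicates spanned more than the distance to the other groups' means of 58.0 and 66.1. MAP4K1, the haematopoietic member of the tier, was at 0.403 to 0.656 CPM as group means and was not called. MAP4K3 and MAP4K5 were singled out here after their values had been seen.

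Among the MAP3K genes, 4 were called at least 2-fold higher in pseudopodia than in cell bodies. MAP3K4 (ENSG00000085511, chromosome 6, 160991727 to 161117385, plus strand) encodes MEKK4, which passes stress and developmental signals to the JNK and p38 branches. Its CPM was 172, 242 and 239 in pseudopodia, 43.9, 58.8 and 57.3 in cell bodies and 27.9, 28.4 and 27.2 in whole cells. The 3 groups did not overlap, with pseudopodia highest and whole cells lowest. The log2 fold change was 2.03 ± 0.17 against cell bodies (4.08-fold, edgeR adjusted p = 4.22e-06), 2.97 ± 0.17 against whole cells (7.83-fold, edgeR adjusted p = 2.71e-07) and 0.94 ± 0.16 for cell bodies against whole cells (edgeR adjusted p = 0.00131). An antisense gene, AL139393.2, overlaps exons of MAP3K4, and its own mean CPM was 21.1 in pseudopodia, 37.3 in cell bodies and 2.15 in whole cells. The strand setting of the counting is not given in the sources used here, so the split of reads between the pair is uncertain.

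MAP3K5 (ENSG00000197442, chromosome 6, 136557047 to 136792518, minus strand) encodes ASK1, a sensor of oxidative stress above JNK and p38. Its CPM was 42.8, 46.9 and 27.7 in pseudopodia, 13.2, 15.7 and 17.1 in cell bodies and 10.8, 12.0 and 12.0 in whole cells. Every pseudopodia library was above every other library, and the log2 fold change was 1.35 ± 0.19 against cell bodies (edgeR adjusted p = 0.000242) and 1.76 ± 0.20 against whole cells (edgeR adjusted p = 2.13e-05). MAP3K10 (ENSG00000130758, chromosome 19, 40191744 to 40215575, plus strand) encodes MLK2, a mixed-lineage kinase that binds active RAC and CDC42. It stood at 35.3, 33.1 and 45.1 CPM in pseudopodia, 14.6, 15.4 and 14.4 in cell bodies and 14.5, 13.7 and 13.1 in whole cells. Pseudopodia were again clear of both other groups, which overlapped, with log2 fold changes of 1.35 ± 0.15 (edgeR adjusted p = 2.86e-05) and 1.46 ± 0.15 (edgeR adjusted p = 9.34e-06).

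MAP3K1 (ENSG00000095015, chromosome 5, 56815574 to 56896152, plus strand) encodes MEKK1, a kinase and ubiquitin ligase known from epithelial and fibroblast movement. Its CPM was 19.0, 22.7 and 12.9 in pseudopodia, 6.72, 10.1 and 7.66 in cell bodies and 7.43, 5.86 and 6.94 in whole cells. The lowest pseudopodia library stayed above all others, with log2 fold changes of 1.16 ± 0.23 (edgeR adjusted p = 0.00188) and 1.43 ± 0.23 (edgeR adjusted p = 0.000256). MAP3K7 (ENSG00000135341, chromosome 6, 90513573 to 90587045, minus strand) encodes TAK1, the kinase that TGF-beta, interleukin-1 and TNF receptors use to reach JNK, p38 and NF-kappaB. It was at 49.1, 60.8 and 22.2 CPM in pseudopodia, 58.9, 54.1 and 58.2 in cell bodies and 59.1, 58.5 and 56.6 in whole cells. Its groups overlapped in each comparison and none was called, the log2 fold change against cell bodies being -0.37 ± 0.29 (edgeR adjusted p = 0.343). Its value for pseudopodia against whole cells, -0.40 ± 0.29, depended on the processing: it was called at -0.92 on the TPM scale and at 0.86 with the GC and length correction.

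**Figure D3:**
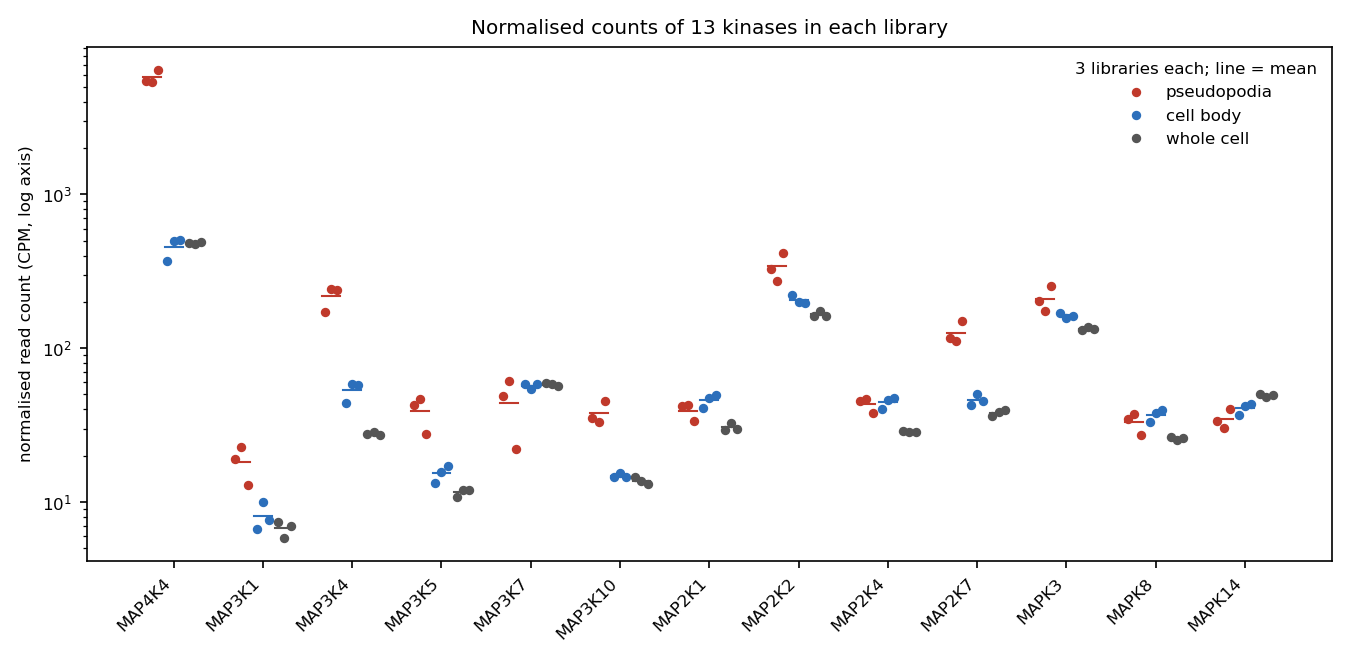
Normalised read count (CPM, log axis) of 13 members described library by library; each point is a library and each line a group mean. For MAP4K4, MAP3K1, MAP3K4, MAP3K5, MAP3K10 and MAP2K7 all 3 pseudopodia points lie above all 6 points of the other groups, whereas for MAP3K7 and MAP2K4 the pseudopodia and cell-body points overlap.

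A further 5 MAP3K genes were called higher in pseudopodia than in cell bodies by less than 2-fold. MAP3K11 (MLK3, a mixed-lineage kinase activated by CDC42 and RAC) and MAP3K14 (NIK, the kinase of the non-canonical NF-kappaB route) each rose by 0.92 on the log2 scale, with edgeR adjusted p = 0.000565 and 0.00115. MAP3K3 (MEKK3, which feeds the ERK5 branch) rose by 0.68 (edgeR adjusted p = 0.00568). MAP3K12 and MAP3K6 rose by 0.48 and 0.43 (edgeR adjusted p = 0.0246 and 0.0366), but on the TPM scale neither was called (0.18 and 0.13). The MAP3K12 call was lost without pseudopodia replicate 1 or cell-body replicate 2 or 3 (edgeR adjusted p up to 0.102), and the MAP3K6 call without pseudopodia replicate 1 or any cell-body or whole-cell library (up to 0.0952). MAP3K12 encodes DLK, best known from injured axons, and was the single MAP3K gene called lower in either fraction than in whole cells. Singled out after its values were seen, it was at 42.9, 33.5 and 47.1 CPM in pseudopodia, 33.4, 26.8 and 28.2 in cell bodies and 64.0, 63.8 and 66.9 in whole cells. Both fractions lay below the whole-cell libraries without overlap, by -0.66 ± 0.15 for pseudopodia (edgeR adjusted p = 0.00281) and -1.14 ± 0.15 for cell bodies (edgeR adjusted p = 0.000247). Its exons overlap those of PCBP2 on the opposite strand, a gene with more counts, whose mean CPM was 286, 208 and 171.5 in the 3 groups. MAP3K2, MAP3K8, MAP3K9, MAP3K13 and MAP3K20 were not called, with log2 fold changes from -0.31 to 0.63.

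In the MAP2K tier the JNK activator MAP2K7 rose in pseudopodia and its partner MAP2K4 did not pass the test. MAP2K7 (ENSG00000076984, chromosome 19, 7903843 to 7914478, plus strand) is dedicated to JNK, while MAP2K4 (ENSG00000065559, chromosome 17, 12020824 to 12143830, plus strand) acts on JNK and p38. MAP2K7 was at 116.5, 112 and 150.2 CPM in pseudopodia, 42.5, 50.4 and 45.1 in cell bodies and 36.3, 38.3 and 39.7 in whole cells. Its pseudopodia libraries were all more than 2 times the highest library of the other groups. The log2 fold change was 1.46 ± 0.14 against cell bodies (2.75-fold, edgeR adjusted p = 1.4e-05) and 1.73 ± 0.14 against whole cells (3.32-fold, edgeR adjusted p = 2.53e-06). MAP2K4 was at 45.6, 47.0 and 37.7 CPM in pseudopodia, 40.5, 45.9 and 47.6 in cell bodies and 28.9, 28.6 and 28.5 in whole cells. Pseudopodia and cell bodies overlapped (log2 fold change -0.04 ± 0.13, edgeR adjusted p = 0.828), and both lay above whole cells, by 0.60 ± 0.13 (edgeR adjusted p = 0.00196) and 0.64 ± 0.13 (edgeR adjusted p = 0.00307). The pseudopodia value against whole cells was 0.13 and not called on the TPM scale. With the GC and length correction the value against cell bodies was 0.40 and called.

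The ERK activators MAP2K1 and MAP2K2, which encode MEK1 and MEK2, also parted. MAP2K2 (ENSG00000126934, chromosome 19, 4090321 to 4124129, minus strand) was at 330, 275 and 417 CPM in pseudopodia, 221, 200.3 and 196 in cell bodies and 163, 174 and 162 in whole cells. The groups did not overlap, and pseudopodia were higher than cell bodies by 0.73 ± 0.15 (edgeR adjusted p = 0.00285) and than whole cells by 1.03 ± 0.15 (edgeR adjusted p = 0.000153). The value against cell bodies was smaller but still called on the TPM scale (0.42) and with the GC and length correction (0.38). MAP2K1 (ENSG00000169032, chromosome 15, 66386817 to 66492312, plus strand) was at 41.9, 42.7 and 33.4 CPM in pseudopodia, 40.7, 47.6 and 49.4 in cell bodies and 29.5, 32.8 and 29.7 in whole cells. Its pseudopodia and cell-body libraries overlapped, and the log2 fold change was -0.22 ± 0.14 (edgeR adjusted p = 0.231, but called at -0.49 on the TPM scale). Pseudopodia were called higher than whole cells for MAP2K1 by 0.36 ± 0.14 (edgeR adjusted p = 0.0418), a call lost when any of pseudopodia replicates 1 and 2, cell-body replicate 2 or whole-cell replicates 1 and 3 was left out, and on the TPM scale the value was -0.10.

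The p38 activator MAP2K3 gave the largest difference between cell bodies and whole cells among the members tested. Singled out after its values were seen, it was at 436, 388 and 595 CPM in pseudopodia, 329.5, 355 and 326 in cell bodies and 53.1, 59.4 and 59.5 in whole cells. Every pseudopodia and cell-body library was more than 5 times the highest whole-cell library. Whole cells thus did not lie between the fractions, and how they were collected is not separately described. This was not particular to MAP2K3. Members also lowest in whole cells without overlap included MAP2K1, MAP2K4, MAP3K8, MAPK8 and MAPK13. Those highest there without overlap included MAP2K6, MAP3K12, MAP4K3, MAPK10 and MAPK14. The cause of these differences was not tested. The log2 fold change against whole cells was 3.05 ± 0.17 for pseudopodia (8.26-fold, edgeR adjusted p = 1.86e-07) and 2.56 ± 0.17 for cell bodies (5.88-fold, edgeR adjusted p = 1.72e-06). Pseudopodia exceeded cell bodies by 0.49 ± 0.16 (edgeR adjusted p = 0.0275), and that call was lost when any 1 of the 3 cell-body libraries was left out. MAP2K6, the other dedicated p38 activator, was far less abundant, at 7.52 ± 0.53, 6.21 ± 1.02 and 8.95 ± 0.71 CPM, and was called lower in cell bodies than in whole cells by -0.53 ± 0.16 (edgeR adjusted p = 0.0251, lost when any library of either group except cell-body replicate 3 was left out). With the GC and length correction that value was 0.28 and not called. MAP2K5, the activator of ERK5, was not called in any comparison.

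At the level of the MAP kinases themselves, pseudopodia and cell bodies differed by less than 2-fold in each of the 3 genes called. MAPK3 (ERK1, ENSG00000102882, chromosome 16, 30114105 to 30123506, minus strand) was at 201, 174 and 254 CPM in pseudopodia, 170.4, 158 and 162 in cell bodies and 131, 138 and 134 in whole cells. Its groups did not overlap, yet pseudopodia against cell bodies was not called (0.36 ± 0.14, edgeR adjusted p = 0.0668). Against whole cells the call was higher by 0.64 ± 0.14 (edgeR adjusted p = 0.0023), and on the TPM scale it was 0.16 and not called.

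The stress-activated MAP kinases split by gene. MAPK8 (JNK1, ENSG00000107643, chromosome 10, 48306639 to 48439360, plus strand) was at 34.4, 37.3 and 27.1 CPM in pseudopodia, 33.1, 37.7 and 39.5 in cell bodies and 26.4, 25.5 and 26.1 in whole cells. Its pseudopodia and cell-body libraries overlapped (log2 fold change -0.16 ± 0.14, edgeR adjusted p = 0.409, but called at -0.42 on the TPM scale), and cell bodies were higher than whole cells by 0.50 ± 0.14 (edgeR adjusted p = 0.0176). That call was lost without cell-body replicate 2 or 3 or any whole-cell library (edgeR adjusted p up to 0.061). MAPK14 (p38-alpha, ENSG00000112062, chromosome 6, 36027677 to 36111236, plus strand) was at 33.8, 30.5 and 40.4 CPM in pseudopodia, 36.7, 41.9 and 43.1 in cell bodies and 50.3, 47.9 and 49.8 in whole cells. Pseudopodia fell below every whole-cell library, by -0.50 ± 0.14 (edgeR adjusted p = 0.00765), and overlapped with cell bodies (-0.22 ± 0.14, edgeR adjusted p = 0.229). With the GC and length correction the difference from whole cells was -0.15 and was not called, and on the TPM scale the difference from cell bodies was -0.49 and was called.

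Of the other p38 genes, 2 rose in pseudopodia. MAPK11 (p38-beta) was higher there than in cell bodies by 0.78 ± 0.17 (edgeR adjusted p = 0.00417) and MAPK12 (p38-gamma) by 0.72 ± 0.16 (edgeR adjusted p = 0.00424). MAPK13 (p38-delta) differed by -0.28 ± 0.12 there (edgeR adjusted p = 0.0915), but was 2.15-fold higher in cell bodies than in whole cells (edgeR adjusted p = 7.43e-05) and 1.77-fold higher in pseudopodia (edgeR adjusted p = 0.000154). MAPK9 (JNK2), MAPK10 (JNK3), MAPK7 (ERK5) and MAPK6 (ERK3) were not called between pseudopodia and cell bodies, with log2 fold changes of 0.29, -0.07, 0.19 and -0.29. MAPK6, named after its values were seen, ran from 23.5 to 101 CPM over the 3 pseudopodia libraries, a wider span than the distance between any groups.

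Set against whole cells, pseudopodia had more calls in both directions. Of 38 members 22 were higher and 4 lower, or 57.9% and 10.5%, beside 27.9% and 33.1% of all genes tested (61% called in all). The 4 lower members were MAP3K12, MAP4K3, MAPK10 and MAPK14. MAPK10 (-0.72 ± 0.26, edgeR adjusted p = 0.0298) was at 0.12 and not called with the GC and length correction, and its exons overlap those of PTPN13 on the opposite strand, a gene with more counts that was itself lower by -1.30 ± 0.36 (edgeR adjusted p = 0.0117). At least 2-fold, 10 members were higher (14.5% of all genes) and none lower (24.7% of all genes): MAP4K4, MAP3K1, MAP3K4, MAP3K5, MAP3K10, MAP3K11, MAP3K14, MAP2K2, MAP2K3 and MAP2K7. The median log2 fold change was 0.51 for the members and -0.12 for all genes. On the TPM scale the split was 13 higher and 10 lower, and that of all genes was 3227 and 9687, with their median at -0.34. There 4 members called on counts (MAP2K1, MAP4K2, MAPK9 and MAPK12) changed sign, as did 5 that were not called by either fit (MAP2K5, MAP3K2, MAP4K5, MAPK6 and MAPK8). The calls of MAP3K13 (without pseudopodia replicate 1 or whole-cell replicate 1), MAPK9 (without pseudopodia replicate 1 or whole-cell replicate 3), MAPK10 (without pseudopodia replicate 3 or any whole-cell library) and MAPK12 (without pseudopodia replicate 1 or 3 or any whole-cell library) were lost, with edgeR adjusted p up to 0.0616, 0.0708, 0.125 and 0.0983.

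In the fit over all 9 libraries, cell bodies against whole cells gave fewer calls than pseudopodia against whole cells. There 10 members were higher and 3 lower, 26.3% and 7.89%, beside 18.1% and 20.5% of all genes tested (38.6% called in all). The 10 included MAP2K1, MAP2K3, MAP2K4, MAP3K4, MAP3K8, MAP3K11, MAP3K14, MAPK8 and MAPK13, and the 3 were MAP2K6, MAP3K12 and MAP4K3. At least 2-fold, MAP2K3 and MAPK13 were higher (5.45% of all genes) and MAP3K12 lower (14.5% of all genes). MAP3K8, which encodes the ERK activator TPL2, was higher by 0.99 ± 0.16 (edgeR adjusted p = 0.000873). MAP3K14 was higher by 0.50 ± 0.17 (edgeR adjusted p = 0.0342), a call lost when any cell-body or whole-cell library was left out (up to 0.107). The split was 7 and 8 on the TPM scale (median of all genes -0.15), 8 and 5 with upper-quartile factors, and 17 and 2 with the GC and length correction. All genes split into 2643 and 5898, 2719 and 4543, and 5594 and 3798 under these settings. Without pseudopodia replicate 3, which enters through the shared estimate of the spread, the members split into 16 and 6 (all genes 4988 and 5411). Fitted on only the 6 libraries compared, the members also split into 16 and 6 (all genes 5270 and 5464). Without any 1 whole-cell library they split into 7 and 1 (all genes 2338 to 2696 and 2711 to 2996). MAP4K4, MAP3K1, MAP3K5 and MAP3K10, all at least 2-fold higher in pseudopodia, were not called between cell bodies and whole cells.

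Over the 3 comparisons, 4 members were called higher in each: MAP2K3, MAP3K4, MAP3K11 and MAP3K14. Another 11 were called higher in pseudopodia than in both other groups with no call between those groups, namely MAP4K2, MAP4K4, MAP3K1, MAP3K3, MAP3K5, MAP3K6, MAP3K10, MAP2K2, MAP2K7, MAPK11 and MAPK12. No call was made in any comparison for MAP2K5, MAP3K2, MAP3K7, MAP3K9, MAP3K20, MAP4K1, MAP4K5, MAPK6 and MAPK7. The comparisons share their groups pairwise, so these patterns are a description, and the share of all genes with each pattern was not counted. Some of these calls were lost when a single library was left out. They were those of MAP2K3 and MAP3K6 against cell bodies and of MAP4K2 and MAPK12 in pseudopodia against whole cells. The call of MAP3K14 between cell bodies and whole cells was lost too. The 5 members that were not tested, MAP3K15, MAP3K19, MAP3K21, MAPK4 and MAPK15, had 0 to 18 counts per library, and MAP3K19 had 0 in all pseudopodia libraries.

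Pairs of kinases that serve the same step were set against each other as ratios of TPM levels. MAP2K2 over MAP2K1 was 6.55, 5.35 and 10.4 in pseudopodia, 4.52, 3.5 and 3.30 in cell bodies and 4.59, 4.43 and 4.54 in whole cells. MAP2K7 over MAP2K4 was 2.84, 2.65 and 4.42 in pseudopodia, 1.17, 1.22 and 1.05 in cell bodies and 1.40, 1.49 and 1.55 in whole cells. For both pairs every pseudopodia library had the higher ratio. MAP2K3 over MAP2K6 averaged 282 ± 86.0 in pseudopodia and 244 ± 41.6 in cell bodies, which overlapped, against 28.4 ± 3.89 in whole cells. MAPK9 over MAPK8 was 1.81 ± 0.16, 1.32 ± 0.08 and 1.77 ± 0.03. Two-sided exact permutation tests, adjusted over 15 (5 pairs, 4 of them given here, in 3 comparisons), reached at best p = 0.1, the smallest possible with 3 libraries against 3, and 0.136 after adjustment, so none can pass the threshold. In each of these 4 pairs the numerator was the gene with the higher GC content.

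GC content of the transcripts went with the calls and with the spread between pseudopodia libraries. Of the 15 tested members with 55% GC or more, 12 were called higher in pseudopodia than in cell bodies and none lower, where 28.1% of all 5446 genes of that class were higher and 14.9% lower. Of the 12 between 43% and 55%, 3 were higher (MAP4K4, MAP3K4 and MAP3K5) and 1 lower, where 18.4% of all 8711 genes were higher and 21.3% lower. Of the 11 below 43%, MAP3K1 alone was higher, where 7.68% of all 4518 genes were higher and 24.6% lower. Between the libraries, replicate 2 exceeded replicate 3 for all 11 members in the lowest class, 6 of 12 in the middle and none of 15 in the highest. The log2 difference of these libraries had a Pearson correlation of -0.81 with GC content across 38 members, which share the same pair of libraries, and -0.64 across 18675 genes. The log2 fold change against cell bodies had a correlation of 0.26 with GC content across the members and 0.20 across those genes. These are descriptions across genes, which are not independent replicates, and the class limits were chosen after the values had been seen. With the GC and length correction the members split into 22 higher and 2 lower against cell bodies, and all genes into 4585 and 4011. The part of GC content in these calls was not tested otherwise.

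**Figure D4:**
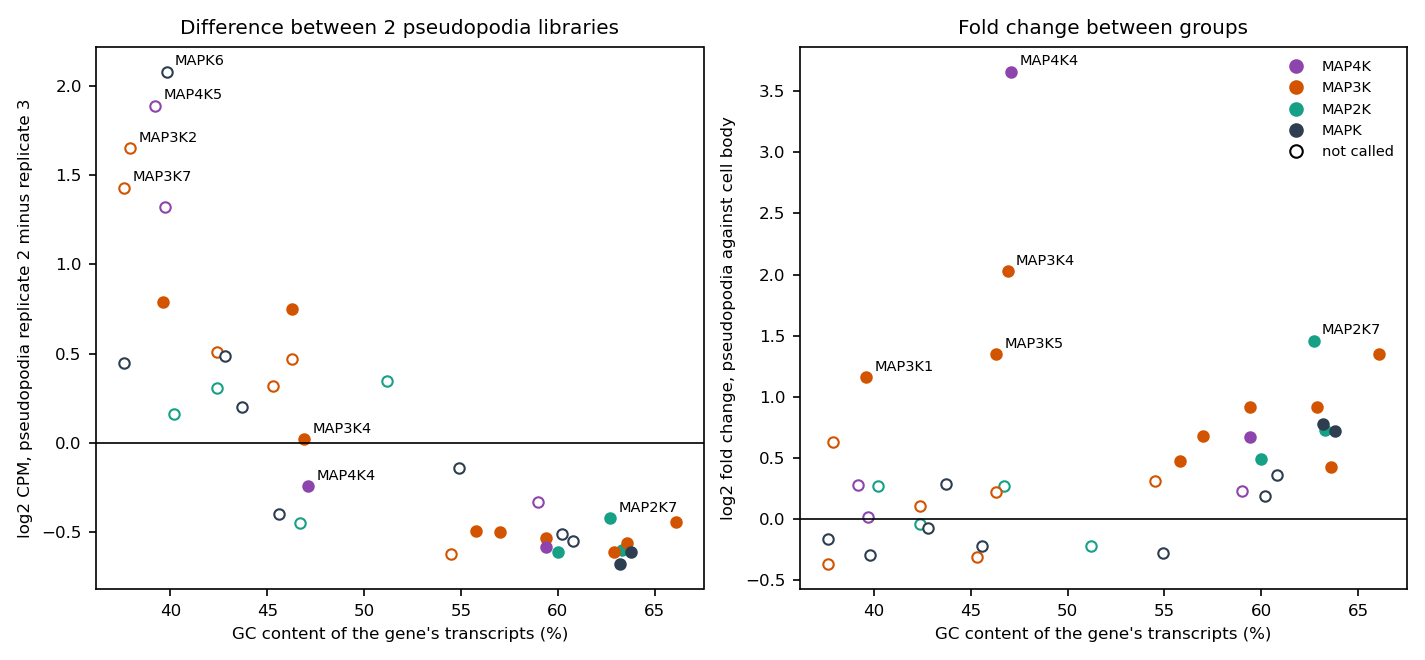
GC content of the transcripts (%, horizontal axis) of 37 tested members against the log2 CPM of pseudopodia replicate 2 minus replicate 3 (left) and against the log2 fold change between pseudopodia and cell bodies (right, filled points called). On the left members below 43% GC lie above zero and those from 55% lie below it, and on the right 12 of the 15 members from 55% GC are called higher while MAP4K4 at 47.1% GC lies apart.

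The other genes of these pathways were taken from 5 lists. Of 59 listed genes 57 were found and tested, and in pseudopodia against cell bodies 19 of them were called higher and 3 lower, with a median log2 fold change of 0.35 (all genes -0.05). Of all genes tested 18.6% were called higher and 19.9% lower, the background for the counts of each list. The alternative settings used for the members were not examined for the listed genes, so how their calls depend on processing is not given. Member calls of a size found in the lists, such as MAP3K6 at 0.43 and MAP3K12 at 0.48, were not made on the TPM scale. Of the 9 RAS and RAF genes, which relay receptor signals to the ERK branch, 5 rose and 1 fell. The GTPases HRAS and RRAS rose by 1.12 ± 0.17 and 0.75 ± 0.14, ARAF rose by 0.42 ± 0.15, and NRAS fell by 0.41 ± 0.14 on the log2 scale. HRAS was at 45.9, 39.4 and 62.1 CPM in pseudopodia and 24.2, 22.6 and 21.0 in cell bodies, without overlap.

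Of 6 kinases of the same tiers that carry other names, 2 rose and none fell, and both belong with MAP4K4 to 1 subfamily of STE20 kinases. TNIK rose by 1.66 ± 0.21 (edgeR adjusted p = 0.000101), from a mean of 1.43 to 4.51 CPM, and MINK1 by 0.91 ± 0.15 (edgeR adjusted p = 0.000696), from 105.2 to 198 CPM. The kinases TAOK1, TAOK2, TAOK3 and NLK were not called, with values from 0.35 to 0.58.

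Of 21 scaffolds and adaptors tested, 5 rose and 1 fell, a share of rises near the 18.6% of all genes. SH3RF1 (POSH, a scaffold that joins RAC to mixed-lineage kinases and JNK) rose by 1.40 ± 0.14 against cell bodies (edgeR adjusted p = 1.33e-05) and by 2.57 ± 0.14 against whole cells (edgeR adjusted p = 1.78e-07). CNKSR3 rose by 0.98 ± 0.14 and TRAF2, the adaptor of TNF receptors, by 0.65 ± 0.18. MAPK8IP3 (JIP3, a JNK scaffold that also binds kinesin) fell by 0.53 ± 0.13 against cell bodies (edgeR adjusted p = 0.00636) and by 1.21 ± 0.13 against whole cells (edgeR adjusted p = 1.41e-05).

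Of 11 kinases that MAP kinases phosphorylate, 6 rose and none fell. MKNK2, which phosphorylates the cap-binding factor eIF4E, rose by 1.10 ± 0.13 (edgeR adjusted p = 5.8e-05), and RPS6KA2, an ERK-activated ribosomal S6 kinase, by 1.05 ± 0.15 (edgeR adjusted p = 0.000253). The lowest called values were MAPKAPK5 at 0.58 ± 0.12 and MAPKAPK3 at 0.43 ± 0.15. Of 10 transcription factors that MAP kinases phosphorylate, ELK1 rose by 0.78 ± 0.15 (edgeR adjusted p = 0.00185) and MYC fell by 0.88 ± 0.14 (edgeR adjusted p = 0.000561), while the other 8 were not called and their list had a median of -0.31. Against whole cells the lists together had 28 genes higher and 8 lower (27.9% and 33.1% of all genes). Between cell bodies and whole cells they had 11 higher, a share near the 18.1% of all genes, and 4 lower (20.5% of all genes).

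**Figure D5:**
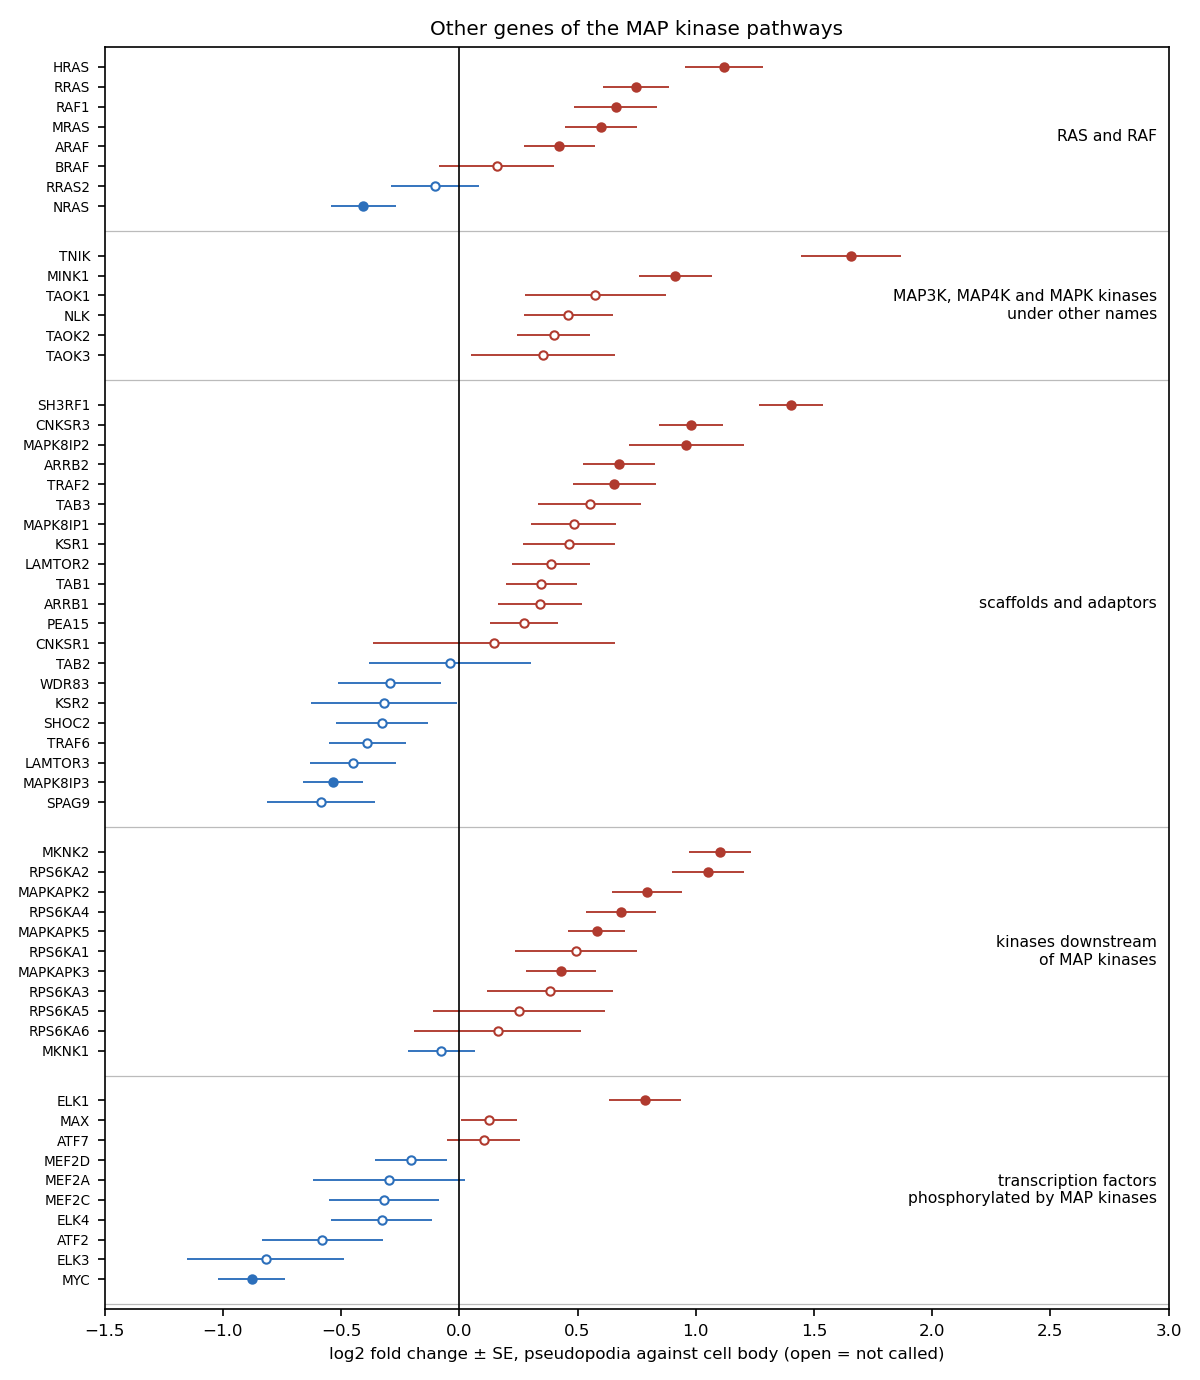
Log2 fold change (horizontal axis, ± SE) between pseudopodia and cell bodies of 56 tested genes of 5 pathway lists, ordered by value within each list; filled points are called. Among them 19 are called higher and 3 (NRAS, MAPK8IP3 and MYC) lower, and in the list of downstream kinases 6 of 11 are called higher.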

How the data were processed

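RNA-seq of 9 libraries in 3 groups was analysed. Read counts per gene were made by the authors with featureCounts, per the header of the deposited table, and 1 line without a gene was left out. The TPM values were deposited by the authors per library, and their per-gene length factor was the same in all libraries. The submitters' processing notes name GRCh38 and DESeq2; no aligner, annotation release or strand setting is given in the sources used here. Counts were tested with edgeR 4.0.16 (R 4.3.3): TMM factors, filterByExpr by group and the robust quasi-likelihood test over all 9 libraries, with a Benjamini-Hochberg adjusted p under 0.05 over 19426 genes as a call. CPM values use the TMM-scaled library sizes. The script was tested on simulated counts in which few genes changed. Over the 3 comparisons it recovered 75.8% to 86.4% of 4-fold changes, 28.4% to 40.3% of 2-fold changes and at most 2.99% of 1.5-fold changes. These shares need not hold for the real counts, where far more genes were called. A member that was not called is therefore not shown to be equal between groups. Errors are SE for fold changes and SD (n = 3) for levels. Positions and GC content come from GENCODE 29, which gave a position for all 43 members. Values per library are given for members called at least 2-fold apart between pseudopodia and cell bodies and for core kinases (MAPK3, MAPK8, MAPK14, MAP2K1, MAP2K2, MAP2K4, MAP3K7), and for each pathway list the 2 highest and 2 lowest called genes; others named were chosen after their values were seen. Counts and sums cover all members and listed genes, but 1 member and 1 listed gene are not reported here by name. Members and lists were chosen with earlier results of these data known. The 21 alternatives include DESeq2 1.42.0, limma 3.58.1 on voom and log2(TPM) values, GC correction and leaving out each library.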

Additional observations from a re-analysis of the deposited data

How the results depend on the processing

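Of the 17 member calls between pseudopodia and cell bodies 10 held under all 21 alternatives (MAP2K2, MAP2K7, MAP3K1, MAP3K4, MAP3K5, MAP3K10, MAP3K11, MAP3K14, MAP4K4 and MAPK11), as did 14 of 26 against whole cells and 7 of 13 between cell bodies and whole cells. DESeq2 left 111 of 114 member results on their side of the threshold with their direction and brought 3 more past it, while limma-voom did so for 92 and 22. The per-gene length factor of the TPM values was the same in all libraries. TPM and normalised counts thus differ between groups by a scaling of each library that all genes share. For pseudopodia against cell bodies MAP2K2 went from 0.73 on counts to 0.42 on TPM + 1, and MAP2K1 from -0.22 to -0.49. The cause of the other changes that follow was not tested. On TPM + 1, 28.1%, 25.0% and 30.9% of the all-gene calls were higher in the 3 comparisons, beside 48.2%, 45.7% and 46.9% on counts. With the GC and length correction these shares were 53.3%, 56.3% and 59.6%. Members lower in pseudopodia than in cell bodies numbered 1, but 2 with a filter of 5 CPM, 3 with voom, 6 with TPM + 1 and 6 with TPM + 0.1, and 2 with the GC and length correction with or without the replicate block; leaving out libraries gave 0 to 3. Against whole cells the all-gene calls were 11842, and 7516 with the 5 CPM filter, which tests fewer genes. Members higher there (22) were 13 on both TPM scales, and members lower (4) were 10 with TPM + 1, 9 with TPM + 0.1 and 2 with the GC correction with or without the block; leaving out libraries gave 2 to 6. Between cell bodies and whole cells the all-gene calls were 7501, against 4667 with the 5 CPM filter and 11967 with voom. Members higher there (10) were 17 with voom, 6 with TPM + 0.1, 16 with only the 6 libraries compared, 17 with the GC correction and 18 with the block added; leaving out libraries gave 7 to 16. Members lower (3) were 5 with upper-quartile factors, 1 with no filter, 7 with voom, 8 with TPM + 1, 7 with TPM + 0.1 and 6 with only the 6 libraries; leaving out libraries gave 1 to 6.

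Of 2385 member results over the alternatives, 117 had another sign than the reported value. In 87 of these neither fit made a call, and the 30 others were as follows. On the TPM scales (TPM + 1, then TPM + 0.1) pseudopodia against whole cells gave -0.10 and -0.11 for MAP2K1, -0.013 and -0.016 for MAP4K2, -0.10 and -0.10 for MAPK9, and -0.039 and -0.042 for MAPK12. With the GC correction (then with the replicate block added) that comparison gave 0.82 and 0.78 for MAP2K6, 0.86 and 0.85 for MAP3K7, 0.49 and 0.48 for MAP3K20, 0.18 and 0.17 for MAP4K3, 0.12 and 0.070 for MAPK10, and -0.022 and -0.030 for MAPK12. Cell bodies against whole cells gave 0.28 and 0.26 for MAP2K6, 0.70 and 0.70 for MAP3K2, 0.90 and 0.90 for MAP3K7, and 0.49 for MAP4K5 with the correction and the block together. Pseudopodia against cell bodies gave 0.40 and 0.39 for MAP2K4. Without pseudopodia replicate 2 MAP4K5 was called lower than in whole cells at -0.63 (edgeR adjusted p = 0.0423), and its values with 1 library left out ran from -0.63 to 0.43.

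The labels do not say that a replicate number marks a shared culture or membrane, and the deviations of same-numbered libraries correlated between -0.08 and 0.09, so they were not treated as pairs; a shared source cannot be told from these values. With the replicate block the members split into 15 higher and 1 lower, 19 and 4, and 9 and 2 in the 3 comparisons. All genes split into 3267 and 3653, 5131 and 6363, and 3051 and 3747, and 6 of 114 member results fell below the threshold. The wide spread in pseudopodia limits precision, and through the shared estimate of the spread it enters all 3 comparisons, also cell bodies against whole cells. With only the 6 libraries compared, 5549 genes were called between pseudopodia and cell bodies (7475 in the fit of all 9 libraries). Pseudopodia against whole cells then had 11305 (11842), and cell bodies against whole cells 10734 (7501).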
